A study of Mus musculus with 12 samples.

Results

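Among newly developed regulatory T cells (Treg) from the thymus of IL-15-deficient (Il15°) mice, 132 TCRα clonotypes were found in all 4 mice while at least 1 wild-type (wt) mouse and at least 1 IL-2-deficient (Il2°) mouse lacked them. A clonotype is a combination of V segment (TRAV), CDR3 amino acid sequence and J segment (TRAJ), and a public clonotype is one that every library of a genotype holds. The 132 clonotypes were chosen by detection alone, with at least 1 UMI (unique molecular identifier, a tag that marks one mRNA molecule) in each Il15° library as the requirement. They were 31.7% of the 416 public clonotypes of Il15° mice and 0.585% of the 22578 clonotypes of all 12 libraries. The other 284 public clonotypes of Il15° mice were also public in wt mice (248 clonotypes) or in Il2° mice (214 clonotypes), and 178 of them were found in all 12 libraries.

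The TCRα chain is assembled by joining one TRAV to one TRAJ segment, and at the joint bases are trimmed and added. The joint encodes the CDR3, the loop that lies over the peptide in the groove of an MHC molecule. Because several joints can encode the same CDR3 and joints with few added bases form often, some α chains recur in many individuals. IL-2 and IL-15 are cytokines that share receptor chains and sustain Treg, which restrain immune responses to self, during their development in the thymus.

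Each of the 12 libraries came from 100000 cells of 1 mouse aged 3 weeks, and there were 4 libraries for wt, 4 for Il2° (Il2 null) and 4 for Il15° (Il15 null) B6 mice. All mice, the wt controls included, carried the Rag2-Gfp reporter, the Foxp3-Thy1a reporter, the Kaa Tcrb transgene and 1 null allele of Tcra. Cells positive for GFP and Thy1.1 that expressed CD4 and lacked CD8 were sorted, since GFP persists for a short time after Rag2 expression ends and Thy1.1 reports Foxp3. The Kaa transgene gives all T cells the same β chain, which is public in the CD4+ response to myelin oligodendrocyte glycoprotein. The null alleles of Il2 and Il15 were carried in the germline and so were not limited to a cell type. No other transcripts were measured, so that the Treg identity of the cells could not be checked by gene expression. The invariant α chain of NKT cells (TRAV11 family joined to TRAJ18) held between 1 and 15 UMIs in each library and that of MAIT cells (TRAV1 joined to TRAJ33) between 0 and 25, and neither was among the 132 clonotypes.

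The libraries held 18018, 13758, 10751 and 18589 UMIs in Il15° replicates 1 to 4. The wt libraries held 25980, 23915, 15977 and 17330 UMIs and the Il2° libraries 13274, 18652, 15379 and 7625. A clonotype missing from a library could have made up as much as 3 UMIs of its total, which was 0.0115% in the largest library and 0.0393% in the smallest, counting error only. The median share of the 132 clonotypes in Il15° libraries, 0.0266%, lay between these limits.

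Libraries also differed in which others they resembled, and the rule counts libraries. Of the 30939 CDR3 nucleotide sequences (taken with V and J), those found in exactly 2 libraries were counted for each of the 66 pairs of libraries. In 10 pairs there were between 125 and 1322 such sequences, and the remaining 56 pairs held between 0 and 98, with a median of 17.5. The 10 pairs with more than 100 sequences are called linked here. Of these, 3 joined the Il15° libraries into one chain, with 416 sequences for replicates 2 and 3, 389 for replicates 3 and 4, and 1145 for replicates 4 and 1. The Il15° pairs off this chain held 88 sequences (replicates 2 and 4), 16 (replicates 1 and 2) and 6 (replicates 1 and 3). No linked pair joined an Il15° library to another genotype, whereas 3 linked pairs joined a wt library to an Il2° library. In linked pairs, 84.8% of the shared sequences had a single UMI in the library with fewer, against 46.7% in the other pairs. The direction held along each Il15° link: replicate 2 had more UMIs than replicate 3 for 345 of 416 sequences and fewer for 1, replicate 3 more than replicate 4 for 338 of 389 and fewer for 2, and replicate 4 more than replicate 1 for 907 of 1145 and fewer for 22. Whether these sequences arose in both mice was not tested.

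**Figure D1:**
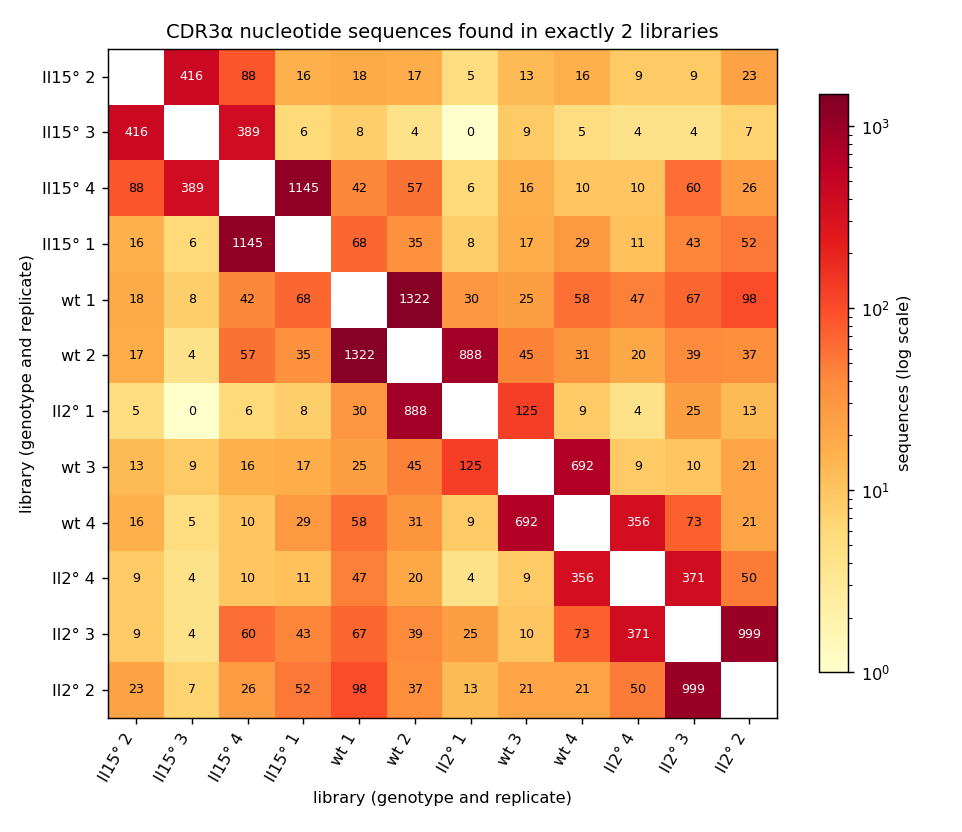
Number of CDR3α nucleotide sequences found in exactly 2 libraries, for each pair of the 12 libraries (rows and columns, genotype and replicate; colour on a log scale). High values run along the diagonal, from 125 to 1322 in the 10 linked pairs, and the 4 Il15° libraries form a chain of their own.

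Membership of the 132 clonotypes rested on these links more often than that of the other public clonotypes. For 95 of the 132 clonotypes (72.0%), at least 1 of the 4 Il15° libraries held the clonotype only through nucleotide sequences with a single UMI each that a linked library held with more UMIs. This was the case for 88 of the 284 other public clonotypes (31.0%). By library, it concerned 42 clonotypes in replicate 1, 4 in replicate 2, 66 in replicate 3 and 14 in replicate 4. With such single UMIs left out of all 12 libraries, 37 of the 132 clonotypes still fulfilled the rule, and 53 clonotypes fulfilled it in all. With every UMI left out for which a linked library held more, 45 fulfilled the rule, 17 of them from the original 132. Both settings were chosen after seeing the data, and they would also remove sequences that both mice truly carried. The 37 clonotypes are given separately below where the result allows it.

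The sequences show how these α chains are built. The main CDR3 nucleotide sequences of the 10 clonotypes with the highest mean share in Il15° libraries are printed 5′ to 3′ from the cysteine to the last CDR3 residue, as deposited, with bases between the end of the V and the start of the J segment in capitals.
TRAV4N-3 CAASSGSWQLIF TRAJ22: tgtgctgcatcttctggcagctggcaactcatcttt
TRAV14D-3/DV8 to TRAJ9 (14 residues): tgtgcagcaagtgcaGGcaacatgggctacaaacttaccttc
TRAV14D-1 to TRAJ27 (13 residues): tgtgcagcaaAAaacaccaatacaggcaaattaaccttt
TRAV4N-3 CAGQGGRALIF TRAJ15: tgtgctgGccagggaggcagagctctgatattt
TRAV4D-3 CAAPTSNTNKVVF TRAJ34: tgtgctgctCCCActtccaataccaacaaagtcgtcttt
TRAV6-5 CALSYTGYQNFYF TRAJ49: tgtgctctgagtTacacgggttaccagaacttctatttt
TRAV7-4 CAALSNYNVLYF TRAJ21: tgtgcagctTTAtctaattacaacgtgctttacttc
TRAV3D-3 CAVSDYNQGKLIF TRAJ23: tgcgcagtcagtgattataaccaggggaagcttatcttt
TRAV7-2 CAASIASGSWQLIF TRAJ22: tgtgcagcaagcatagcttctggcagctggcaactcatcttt
TRAV14-3 to TRAJ12 (13 residues): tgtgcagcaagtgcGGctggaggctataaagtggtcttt
In 3 of these 10 sequences no base lay between V and J, and the longest insertion had 4 bases. As several different joints could give one amino acid sequence, the 5 most frequent of the 7 nucleotide sequences that encoded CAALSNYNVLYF on TRAV7-4 and TRAJ21 in Il15° libraries follow, all differing at the joint alone.
TRAV7-4 TRAJ21, 16 UMIs: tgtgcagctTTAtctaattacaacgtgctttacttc
TRAV7-4 TRAJ21, 9 UMIs: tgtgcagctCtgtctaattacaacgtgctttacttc
TRAV7-4 TRAJ21, 8 UMIs: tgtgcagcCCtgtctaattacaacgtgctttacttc
TRAV7-4 TRAJ21, 2 UMIs: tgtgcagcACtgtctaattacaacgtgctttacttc
TRAV7-4 TRAJ21, 2 UMIs: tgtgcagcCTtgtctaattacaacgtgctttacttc
Next are the leading sequences of 3 clonotypes that none of the 8 wt and Il2° libraries held, to show joints seen in Il15° mice alone.
TRAV6N-6 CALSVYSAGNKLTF TRAJ17: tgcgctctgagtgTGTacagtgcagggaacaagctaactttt
TRAV8-1 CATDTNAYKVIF TRAJ30: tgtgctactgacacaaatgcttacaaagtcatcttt
TRAV7-2 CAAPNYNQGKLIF TRAJ23: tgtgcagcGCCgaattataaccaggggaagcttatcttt

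The clonotypes were rare in every mouse. Together they held 2.33% of the UMIs of Il15° replicate 1 (419 UMIs, 95% Wilson interval 2.12% to 2.56%), 6.25% of replicate 2 (860 UMIs, 5.86% to 6.67%), 4.49% of replicate 3 (483 UMIs, 4.12% to 4.90%) and 3.26% of replicate 4 (606 UMIs, 3.01% to 3.53%). The mean was 4.08% ± 1.70 (SD, n = 4). In wt libraries their summed share was 1.58%, 1.45%, 1.03% and 1.30%, and in Il2° libraries 1.24%, 1.31%, 1.70% and 1.47%. The lowest Il15° library was above the highest of the other 8, which is what a rule on detection favours and was therefore not tested. Il15° replicates 1 and 2 were the lowest and the highest of their genotype. The 284 other public clonotypes held 34.0% ± 0.29 of Il15°, 32.0% ± 0.20 of wt and 31.4% ± 2.15 of Il2° UMIs (SD, n = 4 each), shares that varied little between mice. The 37 clonotypes that held without linked single UMIs had a summed share of 1.45% ± 0.66 in Il15°, 0.504% ± 0.099 in wt and 0.583% ± 0.121 in Il2° libraries (SD, n = 4 each).

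**Figure D2:**
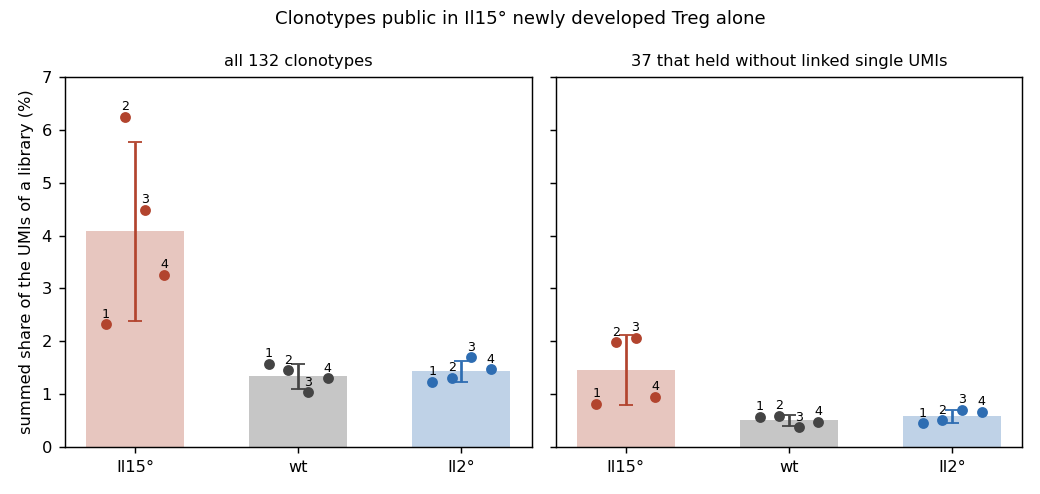
Summed share of the UMIs of each library (%, vertical axis) held by the clonotypes public in Il15° mice alone, for all 132 (left) and for the 37 that held without linked single UMIs (right). Points are libraries with their replicate number, bars are means and whiskers SD (n = 4); Il15° replicate 2 is the highest on the left at 6.25% and replicate 1 the lowest Il15° library at 2.33%.

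Few clonotypes were restricted to Il15° mice in the strict sense. Of the 132, 13 were found in no wt and no Il2° library, 29 in no wt library and 29 in no Il2° library. At the other end, 13 clonotypes were found in 3 of the 4 wt and 3 of the 4 Il2° libraries. Of the 132 clonotypes, wt libraries held 68, 58, 33 and 47, and Il2° libraries 38, 61, 57 and 41. The mean share was higher in Il15° than in both other genotypes for 116 clonotypes, and higher in wt or Il2° mice for 16.

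**Figure D3:**
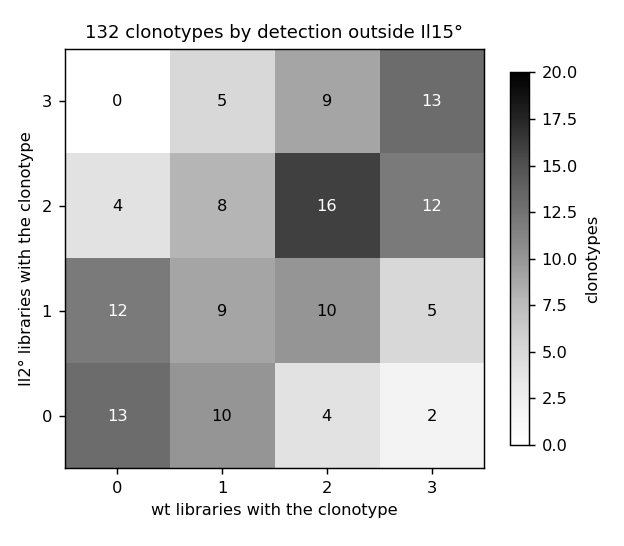
The 132 clonotypes by the number of wt libraries (horizontal axis) and Il2° libraries (vertical axis) that held them; numbers and grey levels are clonotypes. The 13 at the lower left were found in neither genotype, and the 13 at the upper right were missing from 1 library of each.

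Detection in all 4 Il15° libraries often hung on 1 UMI. For 102 of the 132 clonotypes (77.3%) at least 1 Il15° library held a single UMI, against 91 of the 284 others (32.0%), and 30 clonotypes had 2 or more UMIs in all 4. The clonotypes at 1 UMI numbered 57 in replicate 1, 10 in replicate 2, 67 in replicate 3 and 25 in replicate 4. Replicate 2 held the highest share of the 4 for 66 clonotypes, replicate 3 for 37, replicate 4 for 18 and replicate 1 for 11. Just outside the rule lay 550 clonotypes that 3 of the 4 Il15° libraries held and that were public neither in wt nor in Il2° mice. Their median share was 0.0181%, and 267 of them were missing from replicate 2 alone. The number of clonotypes that fulfilled the rule was 268 without Il15° replicate 1, 399 without replicate 2, 235 without replicate 3 and 176 without replicate 4. With each library thinned to 7625 UMIs, 80.55 clonotypes (mean of 20 draws, 67 to 96) fulfilled it.

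The groups of libraries seldom separated for single clonotypes. The share was higher in each Il15° library than in each wt library for 40 of the 132 clonotypes. Over the 1698 clonotypes found in at least 4 of these 8 libraries, 2.83% showed this. Against Il2° libraries 42 of the 132 separated, compared with 4.27% of 1500 clonotypes. From both, 21 separated, compared with 0.972% of 2777 clonotypes. As the rule used this contrast, nothing is read from the difference between these shares. The 21 include the 13 that no wt and no Il2° library held.

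The clonotype with the highest mean share was TRAV4N-3 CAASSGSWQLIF TRAJ22. It had 20, 1, 24 and 29 UMIs in Il15° replicates 1 to 4, 2, 0, 8 and 13 UMIs in wt, and 1, 4, 12 and 0 UMIs in Il2° libraries. Its share was 0.124% ± 0.091 in Il15°, 0.0332% ± 0.0355 in wt and 0.0268% ± 0.0353 in Il2° mice (SD, n = 4 each). The groups overlapped, because Il15° replicate 2 had a single UMI, one of those with a linked library above it. The same CDR3 and TRAJ22 were also found on TRAV4D-3, a near copy of TRAV4N-3, with 36 UMIs in Il15°, 44 in wt and 22 in Il2° libraries, so that reads of one copy could have been assigned to the other.

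The second clonotype, the TRAV14D-3/DV8 to TRAJ9 joint printed above, was the most even of the leading ones. It had 12, 11, 9 and 17 UMIs in Il15° libraries, 12, 0, 7 and 9 in wt and 0, 3, 2 and 3 in Il2° libraries, with shares of 0.0804% ± 0.0104, 0.0355% ± 0.0239 and 0.0171% ± 0.0164 (SD, n = 4 each). All 4 Il15° shares were above all shares in wt and Il2° libraries. It remained among the 37.

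The printed TRAV14D-1 to TRAJ27 joint had 8, 19, 6 and 13 UMIs in Il15°, 5, 15, 5 and 0 in wt and 20, 0, 7 and 2 in Il2° libraries, and the 3 genotypes overlapped. Its CDR3 on the copy TRAV14-1 had 31 UMIs in Il15°, 98 in wt and 41 in Il2° libraries. TRAV4N-3 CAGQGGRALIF TRAJ15 had 1, 8, 23 and 3 UMIs in Il15° libraries, and replicate 3 alone carried most of its mean share of 0.0734% ± 0.0964 (SD, n = 4). TRAV4D-3 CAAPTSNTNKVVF TRAJ34, with 5, 5, 22 and 3 UMIs, was likewise highest in replicate 3. In each case Il15° values overlapped those of the other genotypes.

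The printed TRAV14-3 to TRAJ12 joint had 10, 13, 2 and 14 UMIs in Il15° libraries. It rested on linked single UMIs in replicate 3 and was not among the 37. In wt libraries it had 3, 2, 0 and 0 UMIs and in Il2° libraries 0, 1, 1 and 0, and all Il15° shares were above all others. TRAV7-2 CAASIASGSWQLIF TRAJ22 shows the opposite: its mean share of 0.0622% ± 0.0442 in Il15° mice lay below the 0.101% ± 0.077 of Il2° mice (SD, n = 4 each), and it entered the set because wt replicate 3 and Il2° replicate 1 had 0 UMIs. The other 3 of the 10 leading clonotypes, TRAV6-5 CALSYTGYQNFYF TRAJ49, TRAV7-4 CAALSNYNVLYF TRAJ21 and TRAV3D-3 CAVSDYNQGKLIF TRAJ23, had mean shares from 0.0691% to 0.0706% in Il15° libraries. Of the 10, 7 remained among the 37.

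The 13 clonotypes that no wt and no Il2° library held had between 4 and 24 UMIs over the 4 Il15° libraries. Their highest total belonged to a TRAV14D-3/DV8 to TRAJ2 joint with a CDR3 of 17 residues (1, 9, 2 and 12 UMIs). TRAV6N-6 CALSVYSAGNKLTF TRAJ17 had 1, 6, 6 and 4 UMIs, TRAV8-1 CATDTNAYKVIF TRAJ30 had 4, 5, 1 and 9, and TRAV7-2 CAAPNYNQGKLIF TRAJ23 had 1, 9, 1 and 3. A TRAV6D-6 to TRAJ23 joint of 15 residues had 3, 4, 1 and 8. Of these 5, only the TRAV14D-3/DV8 joint held without linked single UMIs.

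Near-identical CDR3 were few. Of the 132 clonotypes, 9 formed 4 groups that shared V, J and length and differed at 1 residue between neighbours. A group of 3 on TRAV4D-3 and TRAJ39, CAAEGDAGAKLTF, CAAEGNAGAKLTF and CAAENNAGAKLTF, had 16, 17 and 9 UMIs in Il15° libraries. The pair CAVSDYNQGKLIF and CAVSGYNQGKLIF on TRAV3D-3 and TRAJ23 had 44 and 18 UMIs, and the pair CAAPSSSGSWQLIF and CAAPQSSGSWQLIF on TRAV4D-3 and TRAJ22 had 21 and 15. The fourth group was a pair of 15 residues on TRAV12N-3 and TRAJ12. In all, 18 of the 132 had a neighbour of this kind among the other public clonotypes.

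The 132 clonotypes used 40 TRAV and 34 TRAJ segments in 118 combinations. All segments lie in the Tcra locus on mouse chromosome 14 (GRCm38, the build named mm10 in the submitters' processing notes; GENCODE M21 annotation). Counted once per clonotype, TRAV12N-3 (chr14:53240745-53241244, + strand) led with 20 clonotypes (15.2%, against 14.8% of the other public ones), followed by TRAV4D-3 (chr14:52899969-52900470) with 16 (12.1% against 15.1%). TRAV4D-4 and TRAV4N-3 (chr14:53210906-53211407) had 11 each, 8.33% against 6.34% and 4.93%. The TRAV4 family, which has near-identical members in the duplicated stretches of the locus (marked D and N in their names), held 39 of the 132 clonotypes (29.5% against 26.8%), the TRAV12 family 24 and the TRAV7 family 18 (13.6% against 21.5%). Among J segments TRAJ23 (chr14:54196081-54196140) and TRAJ9 had 11 clonotypes each, TRAJ12 had 9 (6.82% against 11.6%), TRAJ22 (chr14:54197248-54197307) had 8, and TRAJ17 and TRAJ21 had 7 each. For 36 of the 132, the same CDR3 and J were also found on another copy of the V segment, and with copies merged by name 117 of the 132 still fulfilled the rule.

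Weighted by UMIs, V usage of the 132 clonotypes was compared with that of the 284 other public clonotypes in the same 4 Il15° libraries. The rule did not use segments. A segment was tested where its mean share reached 5% in one of the sets. The test measures the spread between mice, since the same clonotypes recur in each mouse. Of 7 TRAV segments that the 132 clonotypes used, 5 differed (exact Mann-Whitney tests, 2-sided, p = 0.0286 each, the smallest that 4 against 4 allow; adjusted p = 0.04, n = 4). Both sets were measured in the same 4 mice, and a paired exact test cannot go below p = 0.125 with 4 pairs, so that no comparison between these sets, of segments, residues or insertions, passed when paired.

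TRAV4N-3 held 12.4% ± 3.97 of the UMIs of the 132 clonotypes and 6.22% ± 0.30 of those of the others, and was higher in 4 of 4 libraries. TRAV12N-3 was higher as well, at 9.60% ± 1.03 against 7.60% ± 0.45. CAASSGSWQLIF alone gave 26.7% of the TRAV4N-3 UMIs of the 132 clonotypes. TRAV4D-3 was lower at 11.6% ± 0.28 against 16.9% ± 2.96, TRAV7-2 at 2.62% ± 0.88 against 8.26% ± 1.54 and TRAV7-3 at 2.79% ± 0.54 against 7.96% ± 0.99. TRAV10 was at 6.98% ± 1.44 in the others and was used by none of the 132, so that its 4 values of 0 follow from membership and were given no test. Only 2 of the 284 others used TRAV10, and TRAV10 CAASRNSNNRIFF TRAJ31 made up 96.8% of their UMIs. TRAV3D-3 (6.02% ± 1.11 against 2.98% ± 1.54, p = 0.0571, exact Mann-Whitney test, n = 4) and TRAV4D-4 (8.20% ± 2.40 against 9.33% ± 0.52, p = 1 in the same exact test) did not pass. With linked single UMIs left out, TRAV4N-3 was at 7.03% against 6.98% and no longer passed, while TRAV12N-3 and TRAV7-3 did. With V copies merged, which changes the set to 142 clonotypes, TRAV7-2, TRAV7-3 and TRAV10 (pooled with its D and N copies and then used by the set, 0.915% against 6.16%) had an unadjusted p of 0.0286 and none passed after adjustment (adjusted p = 0.0667, exact Mann-Whitney tests, n = 4). TRAV4N-3, TRAV4D-3 and TRAV12N-3, then pooled with their copies, had no unadjusted p under 0.05 in these tests. Without Il2° replicate 1, 4 of 8 TRAV segments used by both sets had an unadjusted p under 0.05 and 0 passed after adjustment in the same exact test. With 2 UMIs required for presence, 5 of 9 such segments had an unadjusted p under 0.05, and with linked lower counts left out 3 of 6. In both settings 0 passed after adjustment (exact Mann-Whitney tests, n = 4).

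For J segments, 5 of 10 had p = 0.0286 and none passed after adjustment (adjusted p = 0.0571, exact Mann-Whitney tests, n = 4). TRAJ23 was at 7.70% ± 1.54 in the 132 clonotypes and 4.21% ± 0.57 in the others, and TRAJ22 at 9.64% ± 1.91 against 6.58% ± 1.27. TRAJ31 was at 2.48% ± 1.30 against 13.96% ± 1.14, TRAJ37 at 1.55% ± 0.69 against 8.30% ± 1.25 and TRAJ12 at 7.20% ± 1.11 against 13.2% ± 0.9. The TRAV10 clonotype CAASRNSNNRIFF accounted for 48.3% of the TRAJ31 UMIs of the others. TRAV4N-3 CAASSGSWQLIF gave 33.5% of the TRAJ22 UMIs of the 132 clonotypes. Counted once per clonotype, TRAJ22 was at 6.06% against 6.69%. The remaining 5 (TRAJ9, TRAJ15, TRAJ17, TRAJ21 and TRAJ27) overlapped between the sets. With linked single UMIs left out, TRAJ31, TRAJ37 and TRAJ23 kept their direction and an unadjusted p of 0.0286 (exact Mann-Whitney test, n = 4), and TRAJ22 turned to 5.75% against 7.09%. With V copies merged, 6 of 10 TRAJ segments passed after adjustment (adjusted p = 0.0476, exact Mann-Whitney tests, n = 4). Of TRAJ segments used by both sets, 7 of 11 passed with 2 UMIs for presence and 3 of 5 with linked lower counts left out. For clonotypes absent from all wt and Il2° libraries 6 of 9 passed.

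**Figure D4:**
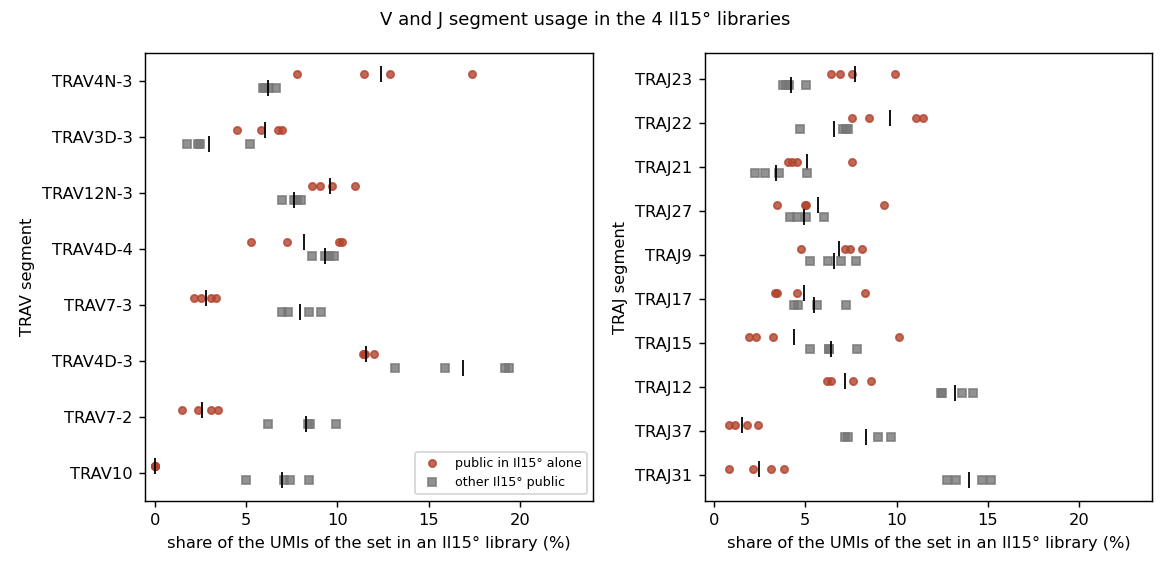
Share of the UMIs of each set in an Il15° library (%, horizontal axis) for the tested TRAV (left) and TRAJ segments (right). Circles are the 132 clonotypes public in Il15° mice alone, squares the 284 other public clonotypes, 1 point per library (n = 4), and ticks are means; TRAV10 is at 0 in the former set, and TRAJ31 differs by the widest margin.

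Outside the 132 clonotypes, few segments passed the test between genotypes after adjustment. UMIs per segment were summed over all other clonotypes and tested with edgeR's quasi-likelihood test and Benjamini-Hochberg adjustment. Against wt mice, 0 of 81 TRAV segments (0%) and 1 of 43 TRAJ segments (2.33%) passed, with 9 and 5 at an unadjusted p under 0.05, and DESeq2 called 1 and 2. The TRAJ segment was TRAJ32, at 1.51% ± 0.36 in Il15° and 2.33% ± 0.24 in wt mice (log2 fold change -0.59, edgeR adjusted p = 0.00284, n = 4 each). Against Il2° mice 2 TRAV segments (2.47%) and 3 TRAJ segments (6.98%) passed, with 19 and 6 at an unadjusted p under 0.05. TRAV4D-3 was at 17.4% ± 2.6 in Il15° and 13.1% ± 1.7 in Il2° mice (edgeR adjusted p = 0.0058), and TRAV4N-3 at 8.39% ± 0.63 and 6.48% ± 0.86 (edgeR adjusted p = 0.0113). TRAJ22 was at 5.96% ± 0.48 and 4.43% ± 0.57 (edgeR adjusted p = 0.0122), TRAJ24 at 1.08% ± 0.18 and 0.681% ± 0.106 (edgeR adjusted p = 0.0122) and TRAJ5 at 0.441% ± 0.064 and 0.765% ± 0.282 (edgeR adjusted p = 0.0226; SD, n = 4 each). These counts changed when 1 library was left out. Against Il2° mice 0 TRAV segments passed without Il2° replicate 2 or 4 or wt replicate 3 or 4, 1 without Il2° replicate 3 or Il15° replicate 1 or 3, 4 without Il15° replicate 2 and 7 without Il2° replicate 1. The segment called without Il15° replicate 1 was lower in Il15° mice, unlike TRAV4D-3 and TRAV4N-3 above. For TRAJ segments the count was 0 without Il15° replicate 4 or with each clonotype counted once, and 1 without Il2° replicate 2 or 3. The segment called without Il2° replicate 3 was lower in Il15° mice, unlike TRAJ22 and TRAJ24 above. Against wt mice 0 TRAJ segments passed without wt replicate 3 or with each clonotype counted once. Against wt mice TRAV4N-3 (8.39% and 8.18%) and TRAJ22 (5.96% and 5.79%) had an edgeR adjusted p of 0.791 and 0.814.

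With the rule as given, no difference in CDR3 length passed the test. Counted once, 45 had 14 residues, 40 had 13, 20 had 12, 12 had 11 and 11 had 15, and their mean of 13.23 was close to the 13.13 of the other public ones. Weighted by UMIs the mean was 13.06, 13.12, 13.04 and 13.21 residues in Il15° replicates 1 to 4, against 13.14, 13.06, 13.16 and 13.10 for the others. The difference was -0.01 (13.10 ± 0.08 against 13.11 ± 0.05, SD, n = 4, exact Mann-Whitney test, p = 0.886), and its sign turned under other settings, for example to 0.0865 with V copies merged. Compared with clonotypes public in wt alone, measured in wt mice, the means were 13.10 ± 0.08 and 13.14 ± 0.06 (exact Mann-Whitney test, p = 0.486, n = 4 each), and compared with clonotypes public in Il2° alone, measured in Il2° mice, 13.10 ± 0.08 and 12.94 ± 0.12 (exact Mann-Whitney test, p = 0.114, n = 4 each). For the 13 clonotypes that no wt and no Il2° library held, the difference from all other public clonotypes of Il15° mice, which then include the rest of the 132, was 0.536 residues, and that from the set public in wt alone, chosen by the same strict rule, was 0.459 (exact Mann-Whitney tests, p = 0.0286 each, n = 4 each). These p measure the spread between mice and not the sampling of 13 clonotypes. The TRAV14D-3/DV8 to TRAJ2 joint, which had the most UMIs of the 13, has 17 residues. Its part in these differences was not tested. With 2 UMIs required for presence, the difference from the set public in Il2° alone was 0.207 (exact Mann-Whitney test, p = 0.0286, n = 4 each).

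Weighted by UMIs, the joints carried more added bases, although clonotypes without an added base in any Il15° library were also more frequent among the 132 (22 of 132, 16.7%, against 27 of 284, 9.51%). On average 1.89, 2.07, 1.92 and 2.03 nucleotides lay between V and J in Il15° replicates 1 to 4 for the 132 clonotypes, and 1.35, 1.43, 1.34 and 1.31 for the other public ones. The means were 1.98 ± 0.087 and 1.36 ± 0.052 (SD, n = 4), higher in 4 of 4 libraries without overlap (exact Mann-Whitney test, 2-sided, p = 0.0286). With linked single UMIs left out the difference was 0.652 nucleotides (exact Mann-Whitney test, p = 0.0286, n = 4), against 0.624 with all UMIs, and with linked lower counts left out it was 1.07 (exact Mann-Whitney test, p = 0.0571, n = 4). Inserted bases were counted from the deposited positions. The V end matched the end of the longest germline V match in 68.3% of 4788 rows checked. The J start matched the start of the longest germline J match in 75.1% of 4983. The 132 clonotypes are rarer than the others, with a median share of 0.0266% against 0.0683%, and the part of this in the difference was not tested.

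The sets chosen by the same rule in the other genotypes lay closer. The 289 clonotypes public in wt alone had 1.77 ± 0.043 inserted nucleotides in wt mice (exact Mann-Whitney test, p = 0.0286, n = 4 each), and the 116 public in Il2° alone had 1.73 ± 0.154 in Il2° mice (exact Mann-Whitney test, p = 0.0571; SD, n = 4 each). The difference from Il2°, 0.247 nucleotides, was 0.0854 with records kept whose V end or J start lay outside the CDR3 (exact Mann-Whitney test, p = 0.343, n = 4 each), and it passed without wt replicate 2 (0.354) or wt replicate 3 (0.287; exact Mann-Whitney tests, p = 0.0286 each, n = 4 each). The size of the difference from wt, 0.208 nucleotides, varied with the setting. It was 0.0813 with linked single UMIs left out (exact Mann-Whitney test, p = 0.343, n = 4 each) and 1.01 with linked lower counts left out (exact Mann-Whitney test, p = 0.0286, n = 4 each). Without Il2° replicate 3 it was 0.129 (exact Mann-Whitney test, p = 0.114, n = 4 each). It also rests on leaving out 287 of 57431 deposited records whose V end or J start lay outside the CDR3, a choice made after seeing the data. With those records kept it was 0.124 (exact Mann-Whitney test, p = 0.486, n = 4 each), and 1 UMI of 1 clonotype, TRAV7-3 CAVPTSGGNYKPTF TRAJ6, moved Il15° replicate 1 to 2.59 nucleotides.

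Fewer nucleotide sequences encoded each clonotype, with a median of 2 in Il15° libraries against 3 for the other public ones. A single nucleotide sequence encoded 32 of the 132 clonotypes (24.2%) and 15 of the 284 others (5.28%). One and the same nucleotide sequence was found in all 4 Il15° libraries for 62 of the 132 (47.0%) and for 192 of the 284 (67.6%). The corresponding share was 42.2% for clonotypes public in wt alone and 40.5% for those public in Il2° alone, each in its own genotype. The 132 had a median of 15.5 UMIs over the 4 Il15° libraries and the 284 had 40, and the part of this in these shares was not tested. The clonotype with the most sequences over all 12 libraries was a TRAV19 to TRAJ57 joint of 16 residues, with 10. TRAV4D-3 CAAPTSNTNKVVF TRAJ34, TRAV7-3 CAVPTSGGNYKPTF TRAJ6 and TRAV7-4 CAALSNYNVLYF TRAJ21 had 8 each, and TRAV12N-3 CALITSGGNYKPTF TRAJ6 had 7.

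In the centre of the CDR3 (without its first 3 and last 4 residues), 5 of 8 residue classes differed between the 132 clonotypes and the other public ones (exact Mann-Whitney tests, p = 0.0286 each, adjusted p = 0.0457, n = 4). Aliphatic residues made up 12.8% ± 1.4 against 10.3% ± 0.5, aromatic ones 10.7% ± 1.0 against 8.004% ± 0.356 and glycine 23.0% ± 0.3 against 22.4% ± 0.4 (SD, n = 4). Polar residues without charge were lower at 42.4% ± 1.0 against 46.0% ± 0.6, as was proline at 1.19% ± 0.12 against 1.96% ± 0.24. Acidic residues (4.47% ± 0.57 against 4.39% ± 0.17, p = 0.686) and basic residues (5.48% ± 1.04 against 6.92% ± 0.34, p = 0.114) overlapped in the same exact test. Of the UMIs of the others, 1398 belonged to TRAV10 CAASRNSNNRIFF TRAJ31. Its centre, SRNSNN, is mostly polar and has no glycine, aliphatic or aromatic residue. The part of this clonotype in these differences was not tested. With linked single UMIs left out no class passed after adjustment (glycine at 23.7% against 21.7%, adjusted p = 0.229 by exact Mann-Whitney test, n = 4), and aromatic residues were at 7.96% against 8.05%. Fewer than 5 of 8 classes at p = 0.0286, the smallest possible here, cannot pass after adjustment (exact Mann-Whitney tests, n = 4). Only 4 had an unadjusted p under 0.05 without wt replicate 2 or 3 or Il2° replicate 1, 3 or 4. The count was also 4 for clonotypes absent from all wt and Il2° libraries, 3 without linked lower counts and 2 with 2 UMIs for presence.

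**Figure D5:**
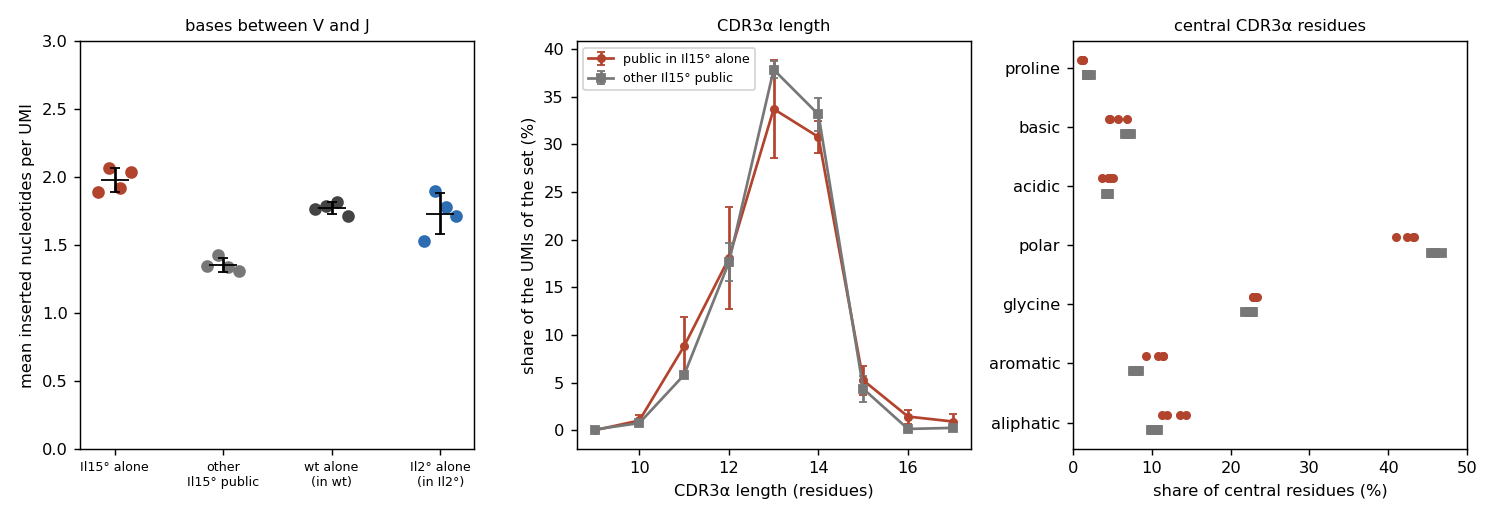
Left: mean inserted nucleotides per UMI for 4 sets of public clonotypes, 1 point per library with mean and SD (n = 4); the 132 clonotypes lie between 1.89 and 2.07, above the other Il15° public clonotypes (1.31 to 1.43). Centre: share of UMIs (%) by CDR3α length, mean and SD over the 4 Il15° libraries. Right: share of central CDR3α residues (%) by class, 1 point per Il15° library, with circles for the 132 clonotypes and squares for the others; cysteine, at 0 in both sets, is not drawn.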

How the data were processed

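TCRα mRNA of sorted newly developed thymic Treg was sequenced with UMIs. The authors built consensus reads per UMI with pRESTO, aligned them with MiXCR (mm10) and exported tables with VDJtools, whose versions are not given in the sources used here. The deposited tables give UMI counts per rearrangement, the fraction of the library, and V end and J start within the CDR3. Counts were summed per V, CDR3 and J. Records with positions outside the CDR3 (287 of 57431) were left out of insertion means. The 132 clonotypes and all lists were chosen with earlier results of these data known. Named clonotypes were the 10 with the highest mean Il15° share, the 5 highest absent elsewhere, the 5 with most nucleotide sequences and groups 1 residue apart. Sets were compared over mice with exact Mann-Whitney tests, and segment counts (at least 10 UMIs in 4 libraries) with edgeR 4.0.16, or DESeq2 1.42.0 as an alternative (R 4.3.3). Scripts were tested on simulated data. V names matched GENCODE for 102 of 105 segments. Alternatives included merged V copies, 2 UMIs for presence, left-out libraries, thinning and linked sequences.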

Additional observations from a re-analysis of the deposited data

Results flagged for a closer look

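Of 129 groups of 4 libraries examined, 12 had a library whose gap to the next value was, relative to the range of the group, above Dixon's 95% critical value, where chance gives about 1 in 20. A clonotype found in only 1 of 4 libraries lies above this value by construction, so that this rate does not apply to such groups. The clonotypes at 1 UMI numbered 3 in wt replicate 3 (next 9) and 10 in one Il2° library (next 18). In Il15° libraries TRAJ15 reached 10.14% of the UMIs of the 132 clonotypes in replicate 3 (next 3.256%), TRAJ21 reached 7.558% in replicate 2 (next 4.555%), and TRAJ22 fell to 4.685% of the other public clonotypes in replicate 2 (next 7.068%).

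Single clonotypes stood apart in the share of 1 library. The leading TRAV14D-3/DV8 to TRAJ9 clonotype was at 0% in wt replicate 2, where the next wt value was 0.04381%. TRAV4N-3 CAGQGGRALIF TRAJ15 was at 0.0904% in Il2° replicate 1 (next 0.01311%). TRAV4D-3 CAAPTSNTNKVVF TRAJ34 was at 0.2046% in Il15° replicate 3 (next 0.03634%) and at 0.05246% in Il2° replicate 4, with 0 in the other Il2° libraries. The other 3 were each found in 1 library of a genotype: TRAV6-5 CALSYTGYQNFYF TRAJ49 at 0.0226% in Il2° replicate 1, TRAV7-3 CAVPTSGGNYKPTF TRAJ6 at 0.03345% in wt replicate 2 and TRAV12N-3 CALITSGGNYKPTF TRAJ6 at 0.0154% in wt replicate 1.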

How the results depend on the processing

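The number of clonotypes was 46 with 2 UMIs for presence, 13 with absence from all wt and Il2° libraries, 80.55 after thinning, and 53 or 45 without linked single UMIs or linked lower counts; leaving out 1 library gave 119 to 399. The length difference from the other public clonotypes changed sign, to 0.0865 residues with V copies merged, 0.0238 with 2 UMIs, 0.536 with strict absence (p = 0.0286, exact Mann-Whitney test), and 0.118 or 0.237 under the linked settings (-0.142 to 0.0606 without 1 library). That from wt became 0.101, 0.0576, 0.459 (p = 0.0286, exact Mann-Whitney test), 0.0664 and 0.0047 in the same order (-0.160 to 0.0955), and that from Il2° passed at 0.207 with 2 UMIs (exact Mann-Whitney test, p = 0.0286). The insertion difference from the other public clonotypes kept its direction in every setting tried, and was 1.68 with strict absence. It was 0.493 to 0.915 without 1 library, with p = 0.0286 in the 8 runs without a wt or Il2° library and p = 0.1, the smallest for 3 against 3, in the 4 without an Il15° library (exact Mann-Whitney tests), and it missed the threshold at 1.07 without linked lower counts. That from wt missed it at 0.105 with copies merged, 0.0240 with 2 UMIs, 0.124 with positions outside the CDR3 kept and 0.0813 without linked single UMIs (0.106 to 0.484 without 1 library), and passed at 1.06 with strict absence and 1.01 without linked lower counts (exact Mann-Whitney test, p = 0.0286 each). It also missed the threshold at 0.129 without Il2° replicate 3 (exact Mann-Whitney test, p = 0.114). In runs without a wt or Il15° library p could not fall below 0.0571, the smallest for 3 against 4, so that none could pass (exact Mann-Whitney tests). It lay above 0.0571 only without wt replicate 1 (p = 0.229) and without Il15° replicate 3 (p = 0.4, same exact test). That from Il2° turned to -0.0205 with copies merged and passed at 0.644 with 2 UMIs, 0.284 in frame and 0.406 without linked single UMIs, and at 0.354 and 0.287 without wt replicate 2 or 3 (0.119 to 0.513 without 1 library), while it was 0.0854 with positions outside the CDR3 kept (exact Mann-Whitney test, p = 0.343). The causes were not tested.

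Counts of segments and classes are next given at an unadjusted p under 0.05 (exact Mann-Whitney tests), where all UMIs gave 5 TRAV segments, 5 TRAJ segments and 5 residue classes. A segment that one set does not use differs by membership alone, so that counts of segments used by both sets stand first and those with such segments in brackets. TRAV segments numbered 3 (3) with copies merged, 5 (6) with 2 UMIs, 7 (12) with strict absence, 12 (14) from a 2% threshold and 3 (6) without linked lower counts, and 0 to 6 (0 to 7) without 1 library. After adjustment 0 TRAV segments used by both sets passed with copies merged, with 2 UMIs or without linked lower counts. The same held without Il2° replicate 1. Without any 1 of the Il15° libraries p could not fall below 0.1, the smallest for 3 against 3 (exact Mann-Whitney tests). In the ranges of these exact tests without 1 library, the 0 comes only from those runs and says nothing about the segments or classes. TRAJ segments numbered 7 (8) with 2 UMIs, 6 (11) with strict absence, 10 (11) from 2%, 3 (8) without linked lower counts and 0 to 5 (0 to 5) without 1 library. Residue classes numbered 2 with 2 UMIs, 4 with strict absence and 1 or 3 under the linked settings (0 to 5 without 1 library). With fewer than 5 of 8 classes at p = 0.0286, the smallest for 4 against 4, none can pass after adjustment (exact Mann-Whitney tests). This ended all residue calls in these settings, without wt replicate 2 or 3, and without Il2° replicate 1, 3 or 4. Outside the set, TRAV calls against wt were 1 with DESeq2 and 2 with copies merged (0 to 1 without 1 library). Against Il2° they were 4 with DESeq2, 4 with each clonotype counted once and 1 without linked lower counts (0 without Il2° replicate 2 or 4 or wt replicate 3 or 4, up to 7 without Il2° replicate 1). TRAJ calls against wt were 2 with DESeq2, 2 with the 132 kept in and 0 counted once (0 without wt replicate 3, up to 2), and against Il2° 0 counted once (0 without Il15° replicate 4, up to 4).

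Replicate numbers are shared between genotypes but belong to different mice, and deviations of same-numbered libraries correlated between -0.143 and 0.134 over 798 clonotypes, so that no pairing across genotypes was taken. The 132 and the 284 clonotypes share their libraries. With a replicate block, 0 TRAV, 0 TRAJ and 0 residue classes could pass, as 4 pairs cannot go below p = 0.125 (exact test), with insertion differences of 0.624 and 0.208 unchanged, and edgeR called 6 TRAV segments against Il2°.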
